A study of Mus musculus with 60 samples.

Results

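The genes described here encode the opioid peptide precursors proenkephalin (Penk) and prodynorphin (Pdyn), the tachykinin precursor preprotachykinin (Tac1), the mu, delta and kappa opioid receptors (Oprm1, Oprd1, Oprk1) and the tachykinin receptors for substance P and neurokinin B (Tacr1, Tacr3). They were chosen by gene name, and 8 of 8 were found among the 21950 genes of the count table. RNA was sequenced from striatum, hippocampus and prefrontal cortex of mice that lack both working copies of Adgrl3 (labelled Adgrl3 -/-, also written Lphn3 -/-; KO) and of mice with both copies of the gene (Lphn3 +/+; WT). Each genotype and region had 10 libraries, 60 in all. The mice were adults of postnatal day 65 to 76, no group had a further treatment in the labels, and the protocol names 12 mice per genotype. The sources used here do not give sex, strain background or the altered part of Adgrl3. Its product latrophilin-3 is a neuronal receptor of the adhesion class. The design text asks how the genotypes differ in each region and across the regions combined.

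Opioid and tachykinin peptides are cut from larger precursors, stored in dense-core vesicles and released beside classical transmitters. Enkephalins act mainly on delta and mu receptors, dynorphins on the kappa receptor, substance P on the receptor encoded by Tacr1, and neurokinin B, the product of Tac2, on the receptor encoded by Tacr3. In the striatum, enkephalin is a classical marker of the medium spiny neurons of the indirect pathway, which carry the dopamine receptor Drd2. Dynorphin and substance P mark those of the direct pathway, which carry Drd1. Tacr1 is known there from cholinergic interneurons, and Oprm1 from the striosome patches.

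Library totals ran from 38985577 to 51387833 counted reads. Adgrl3 lay between 32.5 and 46.9 CPM (read counts rescaled for library depth, with TMM factors) in KO striatum, against 143.5 to 175.6 CPM in WT striatum. In hippocampus it lay between 30.7 and 39.6 CPM in KO and 116.6 to 131.4 CPM in WT, and in prefrontal cortex between 16.5 and 44.2 CPM in KO and 125.7 to 172.4 CPM in WT. No KO library reached a WT library of its region. The summed level of 7 medium spiny neuron markers was 5067 to 8652 CPM in KO striatum and 5755 to 8190 CPM in WT striatum, while no library of another region exceeded 950.3 CPM. The sum of 7 dentate granule cell markers was 238 to 399.5 CPM in KO hippocampus and 253 to 461 CPM in WT hippocampus, against at most 77.6 CPM elsewhere. The sum of 8 cortical excitatory neuron markers was 2185 to 2443 CPM in KO prefrontal cortex and 2093 to 2395 CPM in WT prefrontal cortex, higher than in any library of the other regions. The markers of each region were thus present where its label places them. Markers of other tissue were present as well. A score of striatal markers, defined below, exceeded that of every prefrontal cortex library in 8 KO and 7 WT hippocampus libraries. The sum of 7 olfactory bulb markers had a median of 10.7 CPM in KO and 60.6 CPM in WT prefrontal cortex. The sum of 9 hypothalamus and septum markers reached 159 CPM in KO striatum and 63.1 CPM in WT striatum. The sum of the 8 cortical excitatory neuron markers was 402.5 to 1156 CPM in KO striatum and 502.1 to 961.1 CPM in WT striatum. That of 7 thalamus and habenula markers reached 381.5 CPM in KO striatum and 210.9 CPM in WT striatum. Scores of the striatal, olfactory bulb and hypothalamus markers stand beside the results they touch. No score was made of the cortical or thalamic markers, and their part in the striatum values was not tested.

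The striatum held most of the peptide precursor RNA in both genotypes, and Penk stood far above its level elsewhere. In striatum Penk (GRCm38 chromosome 4, 4133531 to 4138819, minus strand) ran from 845.5 to 1342 CPM with a median of 1048 CPM in KO libraries, and from 914.5 to 1332 CPM with a median of 1018 CPM in WT libraries. Hippocampal levels ran from 17.6 to 124.7 CPM with a median of 30.2 CPM in KO, and from 21.0 to 158.8 CPM with a median of 34.7 CPM in WT. Prefrontal cortex levels ran from 36.2 to 47.2 CPM with a median of 42.4 CPM in KO, and from 37.2 to 50.6 CPM with a median of 42.0 CPM in WT. Every striatum library was above every library of the other regions. The hippocampus libraries spread widely, with a highest value 7.08 times the lowest in KO and 7.55 times in WT, and they lay on both sides of the prefrontal cortex libraries, whose own range was 1.3 times in KO and 1.36 times in WT.

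Pdyn (chromosome 2, 129686565 to 129699844, minus strand) was highest in striatum, followed by prefrontal cortex and then hippocampus. In striatum it ran from 61.0 to 108.4 CPM with a median of 89.7 CPM in KO, and from 83.0 to 110.8 CPM with a median of 90.4 CPM in WT. In hippocampus the range was from 10.8 to 22.2 CPM with a median of 13.3 CPM in KO, and from 11.3 to 26.5 CPM with a median of 13.7 CPM in WT. In prefrontal cortex the range was from 27.7 to 38.2 CPM with a median of 32.7 CPM in KO, and from 24.5 to 39.6 CPM with a median of 28.6 CPM in WT. In KO the regions did not overlap, and in WT the highest hippocampus library reached into the prefrontal cortex range.

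Tac1 (chromosome 6, 7554879 to 7565834, plus strand), the precursor of substance P and neurokinin A, ran in striatum from 103.2 to 149.8 CPM with a median of 127.7 CPM in KO, and from 94.0 to 166.8 CPM with a median of 122.0 CPM in WT. The hippocampus libraries ran from 6.06 to 18.4 CPM with a median of 7.54 CPM in KO, and from 4.996 to 19.3 CPM with a median of 8.10 CPM in WT. The prefrontal cortex libraries ran from 8.37 to 14.1 CPM with a median of 11.3 CPM in KO, and from 8.41 to 12.7 CPM with a median of 10.6 CPM in WT. Striatum stood apart from the other regions, and hippocampus and prefrontal cortex overlapped in both genotypes.

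Of the opioid receptors, Oprm1 was highest in striatum, then hippocampus, then prefrontal cortex. This receptor binds enkephalins and endorphins and is the target of morphine. In striatum Oprm1 (chromosome 10, 6758506 to 7038198, plus strand) ran from 24.7 to 36.7 CPM with a median of 30.3 CPM in KO, and from 23.4 to 37.3 CPM with a median of 31.9 CPM in WT. In hippocampus it ran from 10.2 to 16.7 CPM with a median of 13.7 CPM in KO, and from 10.97 to 15.5 CPM with a median of 14.1 CPM in WT. In prefrontal cortex it ran from 6.56 to 9.83 CPM with a median of 8.77 CPM in KO, and from 7.33 to 11.2 CPM with a median of 9.12 CPM in WT. Striatum did not overlap with either region, and hippocampus overlapped with prefrontal cortex in WT. Oprm1 lies across 2 genes of the opposite strand, Gm10945 and Ipcef1, and whether reads were counted by strand is not stated in the labels or headers, so reads of these genes could add to it. The other genes of the set overlap no gene of the table.

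Oprd1 had another order, with prefrontal cortex close to striatum and hippocampus lowest. In striatum Oprd1 (chromosome 4, 132110726 to 132144486, minus strand) ran from 24.4 to 35.9 CPM with a median of 30.4 CPM in KO, and from 28.6 to 34.7 CPM with a median of 31.4 CPM in WT. Hippocampal levels ran from 12.5 to 15.8 CPM with a median of 13.1 CPM in KO, and from 11.04 to 15.4 CPM with a median of 13.4 CPM in WT. Prefrontal cortex levels ran from 17.3 to 29.9 CPM with a median of 24.4 CPM in KO, and from 13.5 to 25.7 CPM with a median of 22.2 CPM in WT. Striatum and prefrontal cortex overlapped in KO but not in WT. Hippocampus and prefrontal cortex overlapped in WT through 1 low prefrontal cortex library.

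Oprk1, the receptor of dynorphin, was high in striatum and had few reads elsewhere. In striatum Oprk1 (chromosome 1, 5588466 to 5606131, plus strand) ran from 21.4 to 38.1 CPM with a median of 27.4 CPM in KO, and from 26.9 to 34.6 CPM with a median of 32.5 CPM in WT. In hippocampus the range was from 1.08 to 6.52 CPM with a median of 1.89 CPM in KO, and from 0.995 to 5.30 CPM with a median of 2.06 CPM in WT. In prefrontal cortex the range was from 3.11 to 5.79 CPM with a median of 4.36 CPM in KO, and from 3.68 to 5.35 CPM with a median of 4.40 CPM in WT. Striatum did not overlap with the other regions. The lowest hippocampus libraries rest on 49 reads in KO and 46 reads in WT.

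The tachykinin receptors differed from each other in where they were low. In striatum Tacr1 (chromosome 6, 82402334 to 82560104, plus strand) ran from 28.9 to 40.9 CPM with a median of 33.1 CPM in KO, and from 28.9 to 41.0 CPM with a median of 32.2 CPM in WT. The hippocampus libraries ran from 2.04 to 4.27 CPM with a median of 2.98 CPM in KO, and from 1.349 to 6.22 CPM with a median of 2.82 CPM in WT. The prefrontal cortex libraries ran from 1.19 to 1.95 CPM with a median of 1.72 CPM in KO, and from 1.28 to 2.46 CPM with a median of 1.71 CPM in WT. Striatum was far above both regions, and hippocampus lay above prefrontal cortex without overlap in KO. The summed level of 5 cholinergic interneuron markers was 74.4 to 110.9 CPM in KO striatum and 73.6 to 105.1 CPM in WT striatum, and at most 8.22 CPM in any library of another region. Its part in the level of Tacr1 was not tested.

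Tacr3, the receptor of neurokinin B, was lowest in prefrontal cortex, where no library exceeded 1.15 CPM. In striatum Tacr3 (chromosome 3, 134829007 to 134934579, plus strand) ran from 6.38 to 9.83 CPM with a median of 7.75 CPM in KO, and from 5.33 to 9.27 CPM with a median of 6.91 CPM in WT. In hippocampus it ran from 3.05 to 6.46 CPM with a median of 5.04 CPM in KO, and from 2.74 to 5.58 CPM with a median of 4.202 CPM in WT. In prefrontal cortex it ran from 0.384 to 0.695 CPM with a median of 0.609 CPM in KO, and from 0.369 to 1.15 CPM with a median of 0.612 CPM in WT. Striatum and hippocampus overlapped in both genotypes, and prefrontal cortex overlapped with neither. The prefrontal cortex values rest on 18 to 32 reads per library in KO and 16 to 49 reads in WT.

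**Figure D1:**
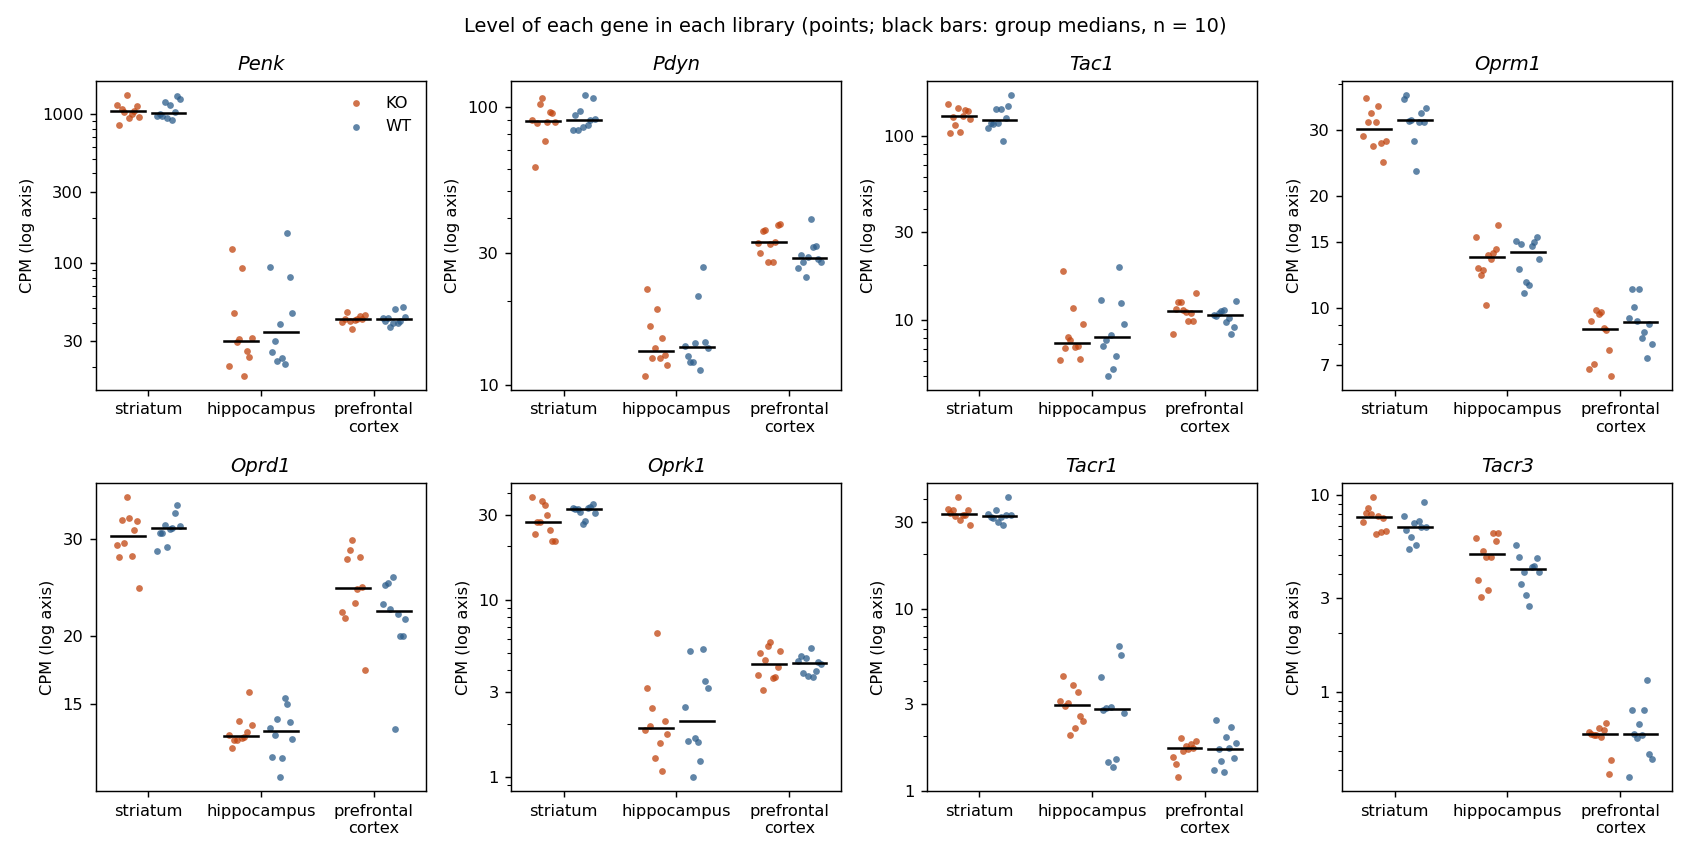
Level of each of the 8 genes in every library, as CPM on a log axis, by region and genotype (points are libraries, black bars the medians of 10 libraries). Penk, Pdyn, Tac1, Oprm1, Oprk1 and Tacr1 stand higher in every striatum library than in any other library, and KO and WT points overlap in every region.

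Counts of different genes also depend on their length. Since reads were counted over whole genes, introns included, the mean CPM was divided by the gene's span in kb. On this scale Penk reached 199 CPM per kb in KO striatum and 204 CPM per kb in WT striatum. Tac1 followed with 11.5 CPM per kb in KO and 11.6 CPM per kb in WT, and Pdyn with 6.74 CPM per kb in KO and 6.98 CPM per kb in WT. All of the receptors were lower per length than the precursors. Oprk1 had 1.61 CPM per kb in KO striatum and 1.78 CPM per kb in WT striatum, and Oprd1 had 0.900 CPM per kb in KO and 0.929 CPM per kb in WT. Tacr1 had 0.213 CPM per kb in KO and 0.208 CPM per kb in WT, Oprm1 had 0.109 CPM per kb in KO and 0.114 CPM per kb in WT, and Tacr3 had 0.0729 CPM per kb in KO and 0.0656 CPM per kb in WT. The span of Oprm1 is 279.7 kb and that of Penk 5.3 kb, and the division treats introns and exons alike. Before the division Oprm1, Oprd1, Oprk1 and Tacr1 had means of 30.5, 30.4, 28.4 and 33.6 CPM in KO striatum. In WT striatum these were 32.0, 31.4, 31.6 and 32.8 CPM. Their spans are 279.7, 33.8, 17.7 and 157.8 kb, so their order per kb follows the span and does not rank their transcripts.

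Regions were compared within each genotype by edgeR's quasi-likelihood test, with a Benjamini-Hochberg adjusted p under 0.05 and a log2 difference of at least 1 in size as the threshold. In striatum against hippocampus, 7 of the 8 genes were higher in striatum in KO, where 5.76% of the 15776 genes tested passed in that direction. The same 7 of 8 were higher in WT, where 5.12% of the 15826 genes tested passed. These were Penk, Pdyn, Tac1, Oprm1, Oprd1, Oprk1 and Tacr1, whose striatum and hippocampus libraries did not overlap. Among all genes 12.7% in KO and 14.7% in WT were higher in striatum with no overlap. Penk had the largest log2 difference among the members, 4.57 ± 0.29 in KO and 4.32 ± 0.31 in WT (SE, edgeR adjusted p = 1.42e-14 in KO and 4.71e-13 in WT). This corresponds to 23.8 times in KO with a 95% interval of 15.8 to 35.9, and 20 times in WT with an interval of 12.8 to 31.1. Oprm1 and Oprd1 had the smallest differences among the genes that passed, at 1.17 ± 0.08 and 1.18 ± 0.08 in KO, and 1.24 ± 0.08 and 1.23 ± 0.08 in WT (SE). Tacr3 missed the minimum size, with 0.63 ± 0.12 in KO and 0.74 ± 0.13 in WT (SE). The median log2 difference over the 8 genes was 3.05 in KO and 3.00 in WT, while that over all genes was 0.0026 in KO and -0.0029 in WT.

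In striatum against prefrontal cortex, 7 of the 8 genes were again higher in striatum, where 7.64% of all genes passed in that direction in KO and 7.07% in WT. The libraries of the regions did not overlap for 7 of 8 genes in KO and 8 of 8 in WT, beside 15.5% of all genes in KO and 17.3% in WT. Here Oprd1 was the gene that missed the minimum size, with a log2 difference of 0.30 ± 0.07 in KO and 0.53 ± 0.07 in WT (SE). Penk differed by 4.64 ± 0.29 in KO and 4.66 ± 0.32 in WT, and Tacr1, with the next largest difference, by 4.33 ± 0.11 in KO and 4.22 ± 0.21 in WT (SE). Tacr3, the smallest difference against hippocampus, differed here by 3.71 ± 0.14 in KO and 3.40 ± 0.15 in WT (SE). Expressed as a ratio, its striatal level was 13.1 times that of prefrontal cortex in KO with a 95% interval of 10.7 to 16.0, and 10.5 times in WT with an interval of 8.52 to 13.1. Tac1 and Oprk1 differed by 3.50 ± 0.15 and 2.68 ± 0.21 in KO, and by 3.60 ± 0.17 and 2.86 ± 0.19 in WT (SE). Pdyn, which had the highest prefrontal level relative to striatum among the precursors, differed by 1.44 ± 0.11 in KO and 1.65 ± 0.12 in WT (SE).

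In hippocampus against prefrontal cortex, Tacr3 passed in both genotypes, with a log2 difference of 3.08 ± 0.14 in KO and 2.66 ± 0.15 in WT (SE, edgeR adjusted p = 1.96e-18 in KO and 1.93e-16 in WT). Pdyn passed as lower in hippocampus in KO, with -1.18 ± 0.11, and in WT it fell just short of the minimum size with -0.96 ± 0.12 (SE). That makes 2 of 8 genes in KO, where 9.74% of all genes passed, and 1 of 8 in WT, where 10.1% passed. Oprm1 and Tacr1 had positive differences and Oprd1 and Oprk1 negative ones, each under the minimum size. These were 0.69 and 0.84 for Oprm1 and Tacr1 in KO, and 0.56 and 0.85 in WT. Oprd1 and Oprk1 had -0.88 and -0.90 in KO, and -0.70 and -0.70 in WT. Penk and Tac1 did not pass the adjusted threshold of p, with Penk at 0.067 ± 0.26 in KO and 0.34 ± 0.28 in WT, and Tac1 at -0.33 ± 0.15 in KO and -0.16 ± 0.18 in WT (SE). RNA from whole tissue pieces cannot tell apart fewer cells of a type and less RNA per cell.

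**Figure D2:**
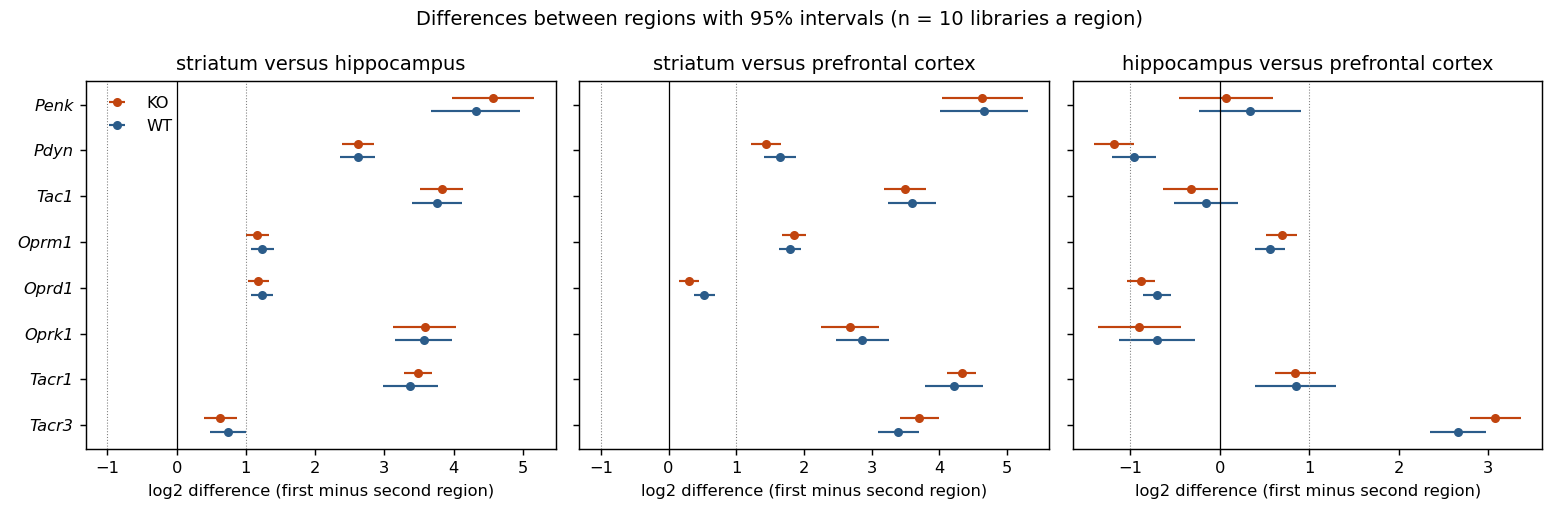
Log2 difference between regions for each gene, in KO and in WT, with 95% confidence intervals from edgeR (n = 10 libraries per region and genotype). Differences of striatum from the other regions are above 1 for all genes but Tacr3 against hippocampus and Oprd1 against prefrontal cortex.

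The hippocampus libraries high in Penk were also those high in markers of striatal neurons. A striatal score was taken as the mean log2 CPM of Adora2a, Drd2 and Rgs9, 3 genes of medium spiny neurons that are not members of the set. It ran from 1.77 to 4.70 in KO hippocampus and from 2.02 to 4.74 in WT hippocampus, against 1.42 to 2.14 in KO prefrontal cortex and 1.55 to 2.07 in WT prefrontal cortex. In striatum it ran from 7.86 to 8.66 in KO and from 7.98 to 8.50 in WT. The summed level of the 4 indirect pathway markers in the table ran from 8.41 to 52.7 CPM in KO hippocampus and from 8.15 to 56.0 CPM in WT hippocampus, with no marker at 0 in every library. Drd2 and Adora2a are in this sum and in the score, so its spread is not separate from that of the score. Of the direct pathway markers, Drd1 ran from 4.16 to 20.5 CPM in KO hippocampus and from 5.34 to 19.5 CPM in WT hippocampus, and Slc35d3 from 0.749 to 3.87 CPM in KO and from 0.865 to 4.13 CPM in WT. The sum of all 5, of 69.1 to 88.2 CPM in KO hippocampus and 69.6 to 87.6 CPM in WT hippocampus, was made up mostly of Sfxn1, with 48.5 to 53.5 CPM in KO and 49.4 to 54.8 CPM in WT, which did not pass as higher in striatum. Of these 5 markers, 3 passed as higher in striatum than in hippocampus in each genotype. The levels of the remaining markers, Isl1 and Eya1, are not given here.

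Hippocampal Penk followed the striatal score in both genotypes. Over the 10 KO libraries Pearson's r was 0.989 and Spearman's rho 0.939, with permutation p of 3e-05 and 0.00016. Over the 10 WT libraries r was 0.996 and rho 0.988, each with a permutation p of 1e-05, the smallest that the resamples can give. Without the 2 libraries farthest from the median score r was 0.963 in KO and 0.997 in WT. Over 48 relations examined for the 8 genes, the adjusted permutation p for r was 0.00048 in KO and 0.00024 in WT, and that for rho was 0.00256 in KO and 0.00048 in WT. Both measures come from the same libraries and share their scaling. The genes of the score were chosen after the data had been seen, and the score planned at first was not run. That choice can favour a relation to Penk. The permutation p-values for the striatal score, for Penk and for the other genes below, are therefore read as a description only.

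Tac1 followed the score as well, with r of 0.918 in KO and 0.970 in WT (adjusted permutation p = 0.00904 in KO and 0.00024 in WT). Its rho was 0.758 in KO and 0.952 in WT (adjusted permutation p = 0.0885 in KO and 0.0024 in WT). Without the 2 farthest libraries r was 0.499 in KO, where the relation rests on them, and 0.924 in WT. Pdyn had r of 0.928 in KO (adjusted permutation p = 0.00346) and 0.585 in WT (adjusted permutation p = 0.27). Without the 2 farthest libraries these were 0.675 in KO, where the relation rests in part on them, and 0.075 in WT. Its rho was 0.806 in KO and 0.588 in WT (adjusted permutation p = 0.0602 in KO and 0.301 in WT). Tacr1 had r of 0.690 in KO (adjusted permutation p = 0.148) and 0.895 in WT (adjusted permutation p = 0.00144), and without those libraries 0.0588 in KO and 0.870 in WT. The rho of Tacr1 was 0.442 in KO and 0.879 in WT (adjusted permutation p = 0.516 in KO and 0.0222 in WT). Neither Oprk1, with r of 0.696 in KO and 0.684 in WT, nor Oprm1, Oprd1 or Tacr3 passed after adjustment. In prefrontal cortex none of the 8 genes had a relation to this score or to a score of olfactory bulb markers that passed.

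**Figure D3:**
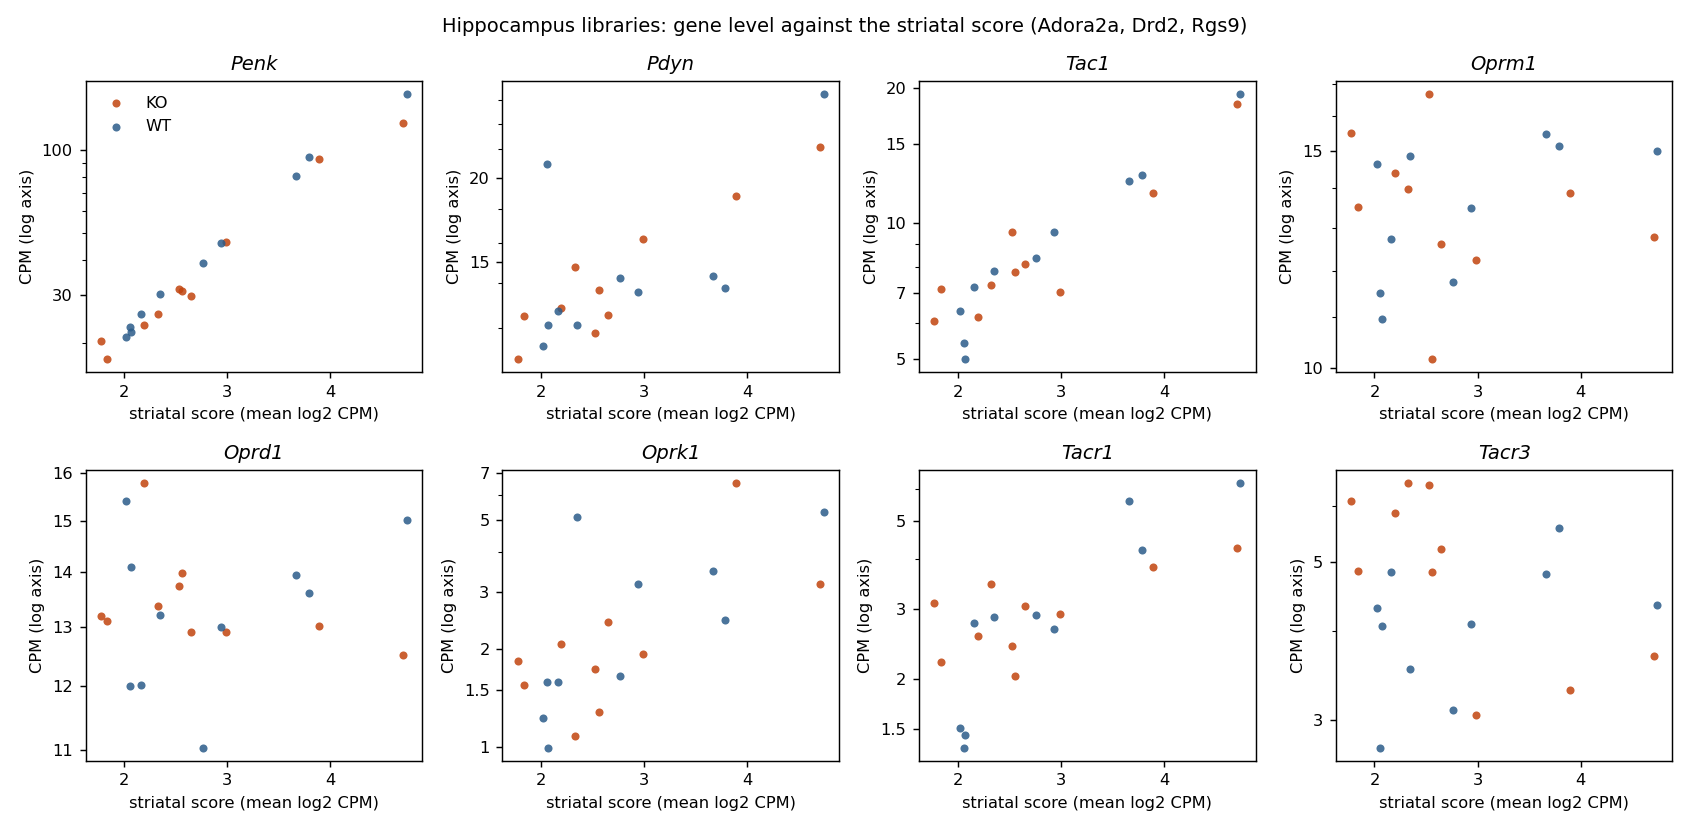
Level in CPM (log axis) of hippocampal libraries against their striatal score (mean log2 CPM of Adora2a, Drd2 and Rgs9), with 10 KO and 10 WT libraries as points. The Penk points of both genotypes rise along 1 line, with r of 0.989 in KO and 0.996 in WT.

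Libraries of hippocampus with a score above the highest prefrontal cortex score of 2.14 were then left out, which kept 2 KO and 3 WT libraries. This choice was made after the data had been seen. Because the score moves with Penk, and in part with Tac1, Pdyn and Tacr1, the choice itself fixes the direction in which their levels shift, and the values are a description with no test. Penk had 17.6 and 20.3 CPM in these KO libraries and 21.0 to 23.0 CPM in these WT libraries, below every prefrontal cortex library. Its log2 difference of hippocampus from prefrontal cortex was -1.15 in KO and -0.97 in WT, and that of striatum from hippocampus was 5.80 in KO and 5.62 in WT. In hippocampus against prefrontal cortex, Oprk1 had -1.37 in KO and -1.78 in WT, Pdyn -1.50 in KO and -1.0 in WT, Tac1 -0.76 in KO and -0.92 in WT, and Tacr1 0.68 in KO and -0.30 in WT (log2). For the 7 genes higher in striatum than in hippocampus over all libraries, the log2 difference was at least 1.07 in KO and 1.19 in WT in this selection.

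KO and WT were compared in each region alone, on 20 libraries, and none of the 8 genes passed the adjusted threshold of 0.05 in any region (edgeR quasi-likelihood). Among all genes tested 0.0514% passed in striatum, 0.128% in hippocampus and 0.117% in prefrontal cortex, so that a count of 0 among 8 genes is near the background. At an unadjusted p under 0.05 the members again gave 0 calls in each region, where 7.14% of genes in striatum, 8.14% in hippocampus and 11.8% in prefrontal cortex reached it. DESeq2 called none of the 8 genes either. KO and WT libraries overlapped for each of the 8 genes in each region. Of all genes 0.0193% did not overlap in striatum, 0.0321% in hippocampus and 0.026% in prefrontal cortex.

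In striatum the KO to WT ratio of Penk was 0.978 with a 95% interval of 0.871 to 1.10 (edgeR). That of Tac1 was 0.997 with an interval of 0.879 to 1.13, and that of Pdyn was 0.967 with an interval of 0.859 to 1.09. Of the receptors in striatum, Oprk1 had a ratio of 0.900 with an interval of 0.784 to 1.03 and Tacr3 a ratio of 1.11 with an interval of 0.975 to 1.27. Oprm1, Oprd1 and Tacr1 had ratios of 0.954, 0.970 and 1.03, with intervals of 0.855 to 1.06, 0.897 to 1.05 and 0.942 to 1.12. A score of hypothalamic markers (mean log2 CPM of Avp, Oxt, Trh and Zic1) averaged 1.5 in KO striatum and 0.543 in WT striatum, and ran from -0.29 to 4.2 in KO and from 0.017 to 1.06 in WT. With that score as a covariate the log2 differences of Penk, Pdyn, Tac1, Oprd1 and Oprk1 lay between 0.00163 and 0.0583. Those of Tacr3, Tacr1 and Oprm1 were 0.20, 0.087 and -0.076, and none of the 8 genes passed.

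In prefrontal cortex Pdyn came nearest to the threshold, with 33.1 ± 3.88 CPM in KO and 29.6 ± 4.14 CPM in WT libraries (SD over 10). Its log2 difference was 0.15 ± 0.08 (SE), with an edgeR p of 0.0526 before and 0.434 after adjustment, and 8 of 10 KO libraries lay above the WT mean. The ratio of Oprd1 was 1.13 with a 95% interval of 0.977 to 1.3, and that of Oprm1 was 0.905 with an interval of 0.798 to 1.03. Penk had a ratio of 0.983 with an interval of 0.912 to 1.06, the narrowest of the set in this region. The other genes had ratios between 0.889 for Tacr3 and 1.06 for Tac1. Olfactory bulb markers differed between these groups, with a mean score (the genes Eomes, Cdhr1, Doc2g and Tbx21) of 0.257 in KO and 2.38 in WT. With that score as a covariate none of the 8 genes passed, and the log2 differences of Penk, Tac1, Oprk1 and Tacr1 were 0.019, -0.018, -0.028 and -0.012. Those of Pdyn, Oprd1, Oprm1 and Tacr3 were 0.12, 0.16, -0.12 and -0.23.

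In hippocampus the intervals were widest for Penk and Oprk1. The KO to WT ratio of Penk was 0.822 with a 95% interval of 0.429 to 1.58, and that of Oprk1 was 0.890 with an interval of 0.539 to 1.47. Tac1 and Tacr1 had a ratio of 0.948 each, with intervals of 0.662 to 1.36 and 0.658 to 1.36. Pdyn had 0.964 with an interval of 0.768 to 1.21. The narrow intervals belonged to Oprd1, with a ratio of 1.01 and an interval of 0.932 to 1.09, and Oprm1, with 0.999 and an interval of 0.890 to 1.12. Single libraries set the size of the Penk value, since the log2 difference of -0.28 was -0.61 without KO replicate 2 and 0.059 without WT replicate 8. With the striatal score as a covariate it was -0.13 (edgeR adjusted p = 0.465), and in the 2 KO and 3 WT libraries of low score it was -0.22. Tacr3 had 4.98 ± 1.27 CPM in KO and 4.14 ± 0.85 CPM in WT libraries (SD over 10). Its log2 difference was 0.26 ± 0.15 (SE), with an edgeR adjusted p of 0.682.

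**Figure D4:**
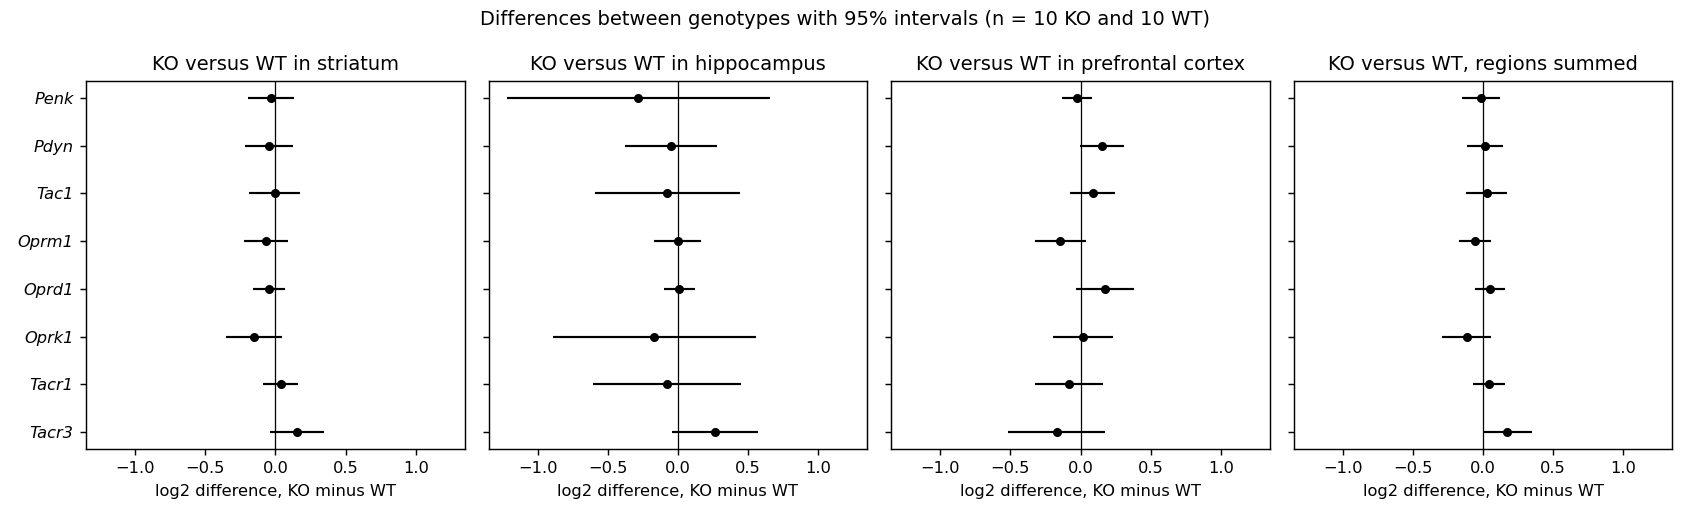
Log2 difference of KO minus WT for each gene in each region and on counts summed over the regions, with 95% confidence intervals from edgeR (n = 10 KO and 10 WT). Every interval includes 0, and the widest is that of Penk in hippocampus, from -1.22 to 0.66.

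For the combined comparison the counts of the 3 regions were added for each genotype and replicate number, which gave 10 KO and 10 WT sums. None of the 8 genes passed, where 0.162% of the 16676 genes tested did, and none had an unadjusted p under 0.05, where 10.5% of genes did. Tacr3 came nearest, with 4.40 CPM in KO and 3.89 CPM in WT on average, and a log2 difference of 0.17 ± 0.08 (SE, edgeR p = 0.0509 before and 0.478 after adjustment). Of the KO sums 9 of 10 lay above the WT mean. Its log2 difference was positive in striatum and hippocampus, at 0.15 ± 0.09 and 0.26 ± 0.15, and -0.17 ± 0.17 in prefrontal cortex (SE), where its counts were lowest. Penk, Pdyn and Tac1 had ratios of 0.989, 1.01 and 1.02, with 95% intervals of 0.899 to 1.09, 0.926 to 1.10 and 0.921 to 1.12. Whether a genotype difference itself varied between regions was tested by the interaction terms together, and none of the 8 genes passed, where 0.0248% of the 16121 genes tested did. The smallest interaction p among the 8 was 0.0984 for Oprd1 before adjustment, and each adjusted p was 1 (edgeR). The median log2 difference over the 8 genes was -0.037 in striatum, -0.065 in hippocampus, -0.0029 in prefrontal cortex and 0.020 on the sums, beside medians over all genes of 0.0025, 0.0012, -0.0037 and 0.00010.

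The genes whose pattern was most like each member were sought among 14077 genes by Pearson's r of log2 CPM, which is given as a description. Over the 60 libraries, where the regions dominate, Penk was most like Ppp1r1b (r = 0.994), which encodes the dopamine-regulated phosphatase inhibitor DARPP-32, followed by Cd4 (0.993) and Serpina9 (0.992). Tac1 was most like the dopamine receptor gene Drd1 (0.993), and Tacr1 most like Rgs9 and Drd2 (0.987 each). Pdyn was nearest to Kif17 (0.976), Oprk1 to Foxp2 (0.976), Oprm1 to Rcan3 (0.970), Oprd1 to the inositol trisphosphate receptor gene Itpr1 (0.970) and Tacr3 to the ryanodine receptor gene Ryr3 (0.972).

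After the mean of each of the 6 groups had been subtracted, the remaining variation of Penk was most like that of Adora2a (r = 0.972), an adenosine receptor gene of indirect pathway neurons, followed by Ppp1r1b (0.944). That of Tac1 was most like Penk itself (0.865), and that of Pdyn most like Gnal (0.718), the G protein subunit that couples Drd1 in striatum. Oprk1 was again nearest to Foxp2 (0.741), and Tacr1 to Ecel1 (0.763). For Tacr3 no gene exceeded 0.476, the value of Aldh5a1. Among the members themselves, within groups, Penk had r of 0.732 with Tacr1, 0.655 with Oprk1 and 0.642 with Pdyn, but 0.054 with Oprm1, 0.0099 with Oprd1 and -0.12 with Tacr3. The libraries share their scaling, and the hippocampus libraries with striatal markers contribute to these values.

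Companion genes of the pathway were read against the share of all genes that passed in the same direction. Higher in striatum than in hippocampus were 5.76% of all genes in KO and 5.12% in WT. Against prefrontal cortex 7.64% in KO and 7.07% in WT were higher in striatum. Lower in striatum than in hippocampus were 4.68% of all genes in KO and 5.06% in WT, and lower in striatum than in prefrontal cortex 4.94% in KO and 4.54% in WT. Between hippocampus and prefrontal cortex 5.68% in KO and 5.98% in WT were higher in hippocampus, and 4.06% in KO and 4.16% in WT were lower.

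Of 6 further peptide and receptor genes of the families, 4 passed the filter on low counts in the region fits. Tac2, which encodes neurokinin B, had a median of 3.63 CPM in KO striatum and 3.51 CPM in WT striatum, 2.91 CPM in KO hippocampus and 2.32 CPM in WT hippocampus, and 6.76 CPM in KO prefrontal cortex and 6.71 CPM in WT prefrontal cortex. It passed as lower in hippocampus than in prefrontal cortex, by -1.11 ± 0.16 in KO and -1.45 ± 0.18 in WT (log2, SE), the opposite direction to its receptor gene Tacr3. None of these genes passed in striatum against either region. Pnoc, the nociceptin precursor, had a log2 difference of striatum from hippocampus of -0.76 ± 0.16 in KO and -0.88 ± 0.11 in WT (SE), and Oprl1, the nociceptin receptor, one of -0.55 ± 0.05 in KO and -0.39 ± 0.06 in WT (SE). Tac4 and Tacr2 had at most 0.115 and 0.330 CPM in any library.

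Of 10 genes of peptide processing, none was higher in striatum in any of its contrasts. Pcsk1, which encodes a convertase that cuts precursors, was lower in striatum than in prefrontal cortex by -1.29 ± 0.15 in KO and -1.22 ± 0.11 in WT (log2, SE). Chgb, a granin of dense-core vesicles, was lower in striatum than in hippocampus in KO, by -1.05 ± 0.07 (SE). In WT no processing gene passed as lower in that contrast. The KO value is near the minimum size, so a pass in KO alone is not read as a difference between genotypes. Pcsk1 and Pcsk2 were lower in hippocampus than in prefrontal cortex in both genotypes, by -1.25 ± 0.15 and -1.08 ± 0.05 in KO and by -1.27 ± 0.11 and -1.07 ± 0.04 in WT (SE). Of the 8 tested genes of peptide-degrading enzymes, Mme, which encodes the enkephalin-cleaving neprilysin, was higher in striatum than in hippocampus, by 3.02 ± 0.08 in KO and 3.21 ± 0.10 in WT (log2, SE). Against prefrontal cortex Mme was higher by 3.76 ± 0.09 in KO and 3.75 ± 0.10 in WT, and Ace, the gene of angiotensin-converting enzyme, by 1.60 ± 0.25 in KO and 1.59 ± 0.25 in WT (SE). Anpep, an aminopeptidase gene, was lower in striatum than in prefrontal cortex in WT, by -1.04 ± 0.10 (SE). In KO no peptidase gene passed as lower there, and this WT value is also near the minimum size. In hippocampus against prefrontal cortex Ace was higher in WT, by 1.17 ± 0.25, and had 0.64 ± 0.25 in KO, while Anpep was lower in WT, by -1.0 ± 0.10, and had -0.87 ± 0.15 in KO (log2, SE). Ace ran from 10.7 to 57.1 CPM in KO hippocampus and from 8.12 to 60.1 CPM in WT hippocampus. The summed level of 8 choroid plexus markers had a median of 320.7 CPM in KO striatum and 368.8 CPM in WT striatum, 422.4 CPM in KO hippocampus and 1503 CPM in WT hippocampus, and 6.03 CPM in KO prefrontal cortex and 9.21 CPM in WT prefrontal cortex. Their part in the differences of Ace was not tested. In this comparison none of the peptidase genes passed in KO, where Ece2 came nearest to the minimum size with 0.97 ± 0.06 (SE).

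Of 23 genes of receptor regulation and coupling, 5 were higher and 2 lower in striatum than in hippocampus in each genotype. Rgs9 and Rgs4, which speed the switching-off of G proteins, were higher by 4.44 ± 0.17 and 2.13 ± 0.07 in KO and by 4.34 ± 0.15 and 2.18 ± 0.06 in WT (log2, SE). Kcnj6, a subunit of the potassium channels that opioid receptors open, was lower by -1.78 ± 0.13 in KO and -1.68 ± 0.12 in WT (SE), and Kcnj5, another subunit, was higher by 1.52 ± 0.21 in KO and 1.36 ± 0.19 in WT (SE). Against prefrontal cortex 2 were higher and 4 lower in KO, and 2 higher and 2 lower in WT. In hippocampus against prefrontal cortex 1 was higher and 3 lower in each genotype, with Rgs4 lower by -1.91 ± 0.07 in KO and -1.80 ± 0.05 in WT (SE).

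None of these companion genes passed in KO against WT in any region, on the sums or in the interaction (edgeR). The smallest unadjusted p of the receptor regulation genes was 0.0124 for Grk5 in striatum, 0.00502 for Gnaz in hippocampus and 0.00128 for Rgs4 in prefrontal cortex. Under 0.05 were 2 of 23 in striatum, 1 of 23 in hippocampus and 4 of 22 in prefrontal cortex. Of all genes 7.14%, 8.14% and 11.8% were under it. Rgs4 had 722 ± 62.2 CPM in KO prefrontal cortex and 639 ± 38.7 CPM in WT prefrontal cortex (SD, n = 10 each), with an edgeR adjusted p of 0.123. Ece1, which encodes an endothelin- and peptide-cleaving enzyme, had a log2 difference of 0.17 ± 0.05 (SE) in prefrontal cortex, with an edgeR adjusted p of 0.135. Tac2 had 3.16 ± 0.86 CPM in KO hippocampus and 2.52 ± 0.67 CPM in WT hippocampus (SD, n = 10 each), with an edgeR adjusted p of 0.604. Pcsk1n, which encodes an inhibitor of the convertase Pcsk1, had a log2 difference of 0.23 ± 0.09 (SE) in prefrontal cortex, with an edgeR adjusted p of 0.329. KO and WT prefrontal cortex also differed in olfactory bulb markers, with a mean score of 0.257 in KO and 2.38 in WT. The prefrontal cortex values of these companion genes were not adjusted for that score.

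Transcription of peptide precursors is known to respond to cyclic AMP through elements bound by CREB. The promoters of RefSeq (GRCm38.p6, from 250 bases before to 50 after a transcription start) were searched on both strands for TGACGTCA, its short form TGACG, and TGCGTCA, the form known from the proenkephalin enhancer. Promoters were at hand for 6 of the 8 genes and were not used here for Penk and Oprk1. TGACGTCA was in none of the 9 promoters of these genes, and in 1.79% of the 32851 promoters of the table. TGCGTCA was in the promoter of Tac1, and in 2.12% of all promoters. TGACG was in those of Tac1, Tacr1 and Tacr3, and in 20.8% of all promoters. The promoters of Pdyn, Oprm1 and Oprd1 held none of the motifs. The 3 promoters with a match are shown, 5′ to 3′ on the gene's strand, with the matches in capitals.
Tac1 (chr6:7554811-7555110, plus strand): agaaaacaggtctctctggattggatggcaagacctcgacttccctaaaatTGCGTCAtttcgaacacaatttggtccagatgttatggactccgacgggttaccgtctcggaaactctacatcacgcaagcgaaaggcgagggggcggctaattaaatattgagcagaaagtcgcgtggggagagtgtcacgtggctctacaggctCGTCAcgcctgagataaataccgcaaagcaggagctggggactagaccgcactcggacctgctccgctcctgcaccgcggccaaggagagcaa
Tacr1 (chr6:82402225-82402524, plus strand): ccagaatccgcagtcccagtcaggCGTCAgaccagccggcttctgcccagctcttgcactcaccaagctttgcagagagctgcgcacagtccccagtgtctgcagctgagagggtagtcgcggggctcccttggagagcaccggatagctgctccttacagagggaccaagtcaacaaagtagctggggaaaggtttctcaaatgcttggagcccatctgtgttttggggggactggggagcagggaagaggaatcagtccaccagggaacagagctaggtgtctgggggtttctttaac
Tacr3 (chr3:134828757-134829056, plus strand): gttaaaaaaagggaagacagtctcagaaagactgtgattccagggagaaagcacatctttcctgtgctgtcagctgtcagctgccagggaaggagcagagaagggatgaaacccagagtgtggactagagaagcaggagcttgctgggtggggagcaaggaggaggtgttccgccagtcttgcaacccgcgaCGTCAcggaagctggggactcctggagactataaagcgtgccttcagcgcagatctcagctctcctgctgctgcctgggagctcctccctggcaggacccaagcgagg
In Tac1 the TGCGTCA match begins 199 bases before the start and contains one of the gene's TGACG matches on the reverse strand, and another begins 43 bases before the start. Those of Tacr1 and Tacr3 begin 226 and 58 bases before the start. A match is a string of letters in a window and does not show binding.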

How the data were processed

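Total RNA of the 60 tissue samples was sequenced, per the labels. The submitters' processing notes name STAR 2.5.2b, DESeq2 1.16.1, cutadapt 1.16, FastQC 0.11.4, bedtools and the build GRCm38, with no order given. The deposited values are raw read counts per whole gene, introns included, per the file headers. Library totals were 38985577 to 51387833.

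The counts were tested with edgeR 4.0.16 (R 4.3.3) by the quasi-likelihood F test, with TMM scaling, filterByExpr, robust dispersions and Benjamini-Hochberg adjustment over all genes tested, at 0.05. Genotypes were compared per region, on counts summed over regions, and by interaction. Regions were compared within a genotype, with a log2 difference of at least 1 as well. The main interaction and region fits had no term for the animal, so they took libraries of different regions as independent. Standard errors and intervals of 95% come from the F statistic, and log2 CPM used a prior count of 2. Scripts were tested on simulated counts. Alternatives were DESeq2 1.42.0, RLE factors, other filters, limma 3.58.1 voom, score covariates, a replicate block and leaving out libraries.

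Equal replicate numbers across regions were taken as 1 animal, which no label states. After group means were removed, same-numbered libraries of a genotype correlated above 0.1 in 10 of 10 pairs for hippocampus with prefrontal cortex and for prefrontal cortex with striatum in each genotype, and in 8 of 10 for hippocampus with striatum. In that last pairing 6 of 10 libraries per genotype correlated best with their own number. Its lowest same-number value was -0.12 in KO and -0.19 in WT. Nothing states that the libraries of a group come from separate animals, and p-values measure the spread between these samples. The 8 genes and all lists were chosen with earlier results of these data known. A gene of the striatal lists is not reported here, and the lists and the score were computed without it. Named were the 8 genes, Adgrl3, genes of the score and marker lists set beside a member, the 3 most similar genes per member by either measure (fewer are printed), and per companion list up to 4 genes that passed or 2 of smallest p.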

Additional observations from a re-analysis of the deposited data

Results flagged for a closer look

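In each of the 48 combinations of gene, region and genotype the highest and lowest of the 10 libraries were compared with their nearest neighbour, and 8 combinations held a library set far apart. Chance flags about 1 in 20 groups of independent, normally distributed values, and the values of 1 library are not independent across genes. In hippocampus, Penk was 158.8 CPM in WT replicate 8, with the next library at 94.2 CPM, Tac1 was 18.4 CPM in KO replicate 2, with the next at 11.7 CPM, Oprk1 was 6.52 CPM in KO replicate 6, with the next at 3.19 CPM, and Oprd1 was 15.8 CPM in KO replicate 9, with the next at 13.98 CPM. WT replicate 8, KO replicate 2 and KO replicate 6 had striatal scores of 4.74, 4.70 and 3.89, against 2.20 for KO replicate 9.

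In prefrontal cortex both unusual values belonged to WT replicate 6, with Pdyn high at 39.6 CPM (the next at 31.6 CPM) and Oprd1 low at 13.5 CPM (the next at 19.98 CPM). In striatum Tacr1 was high at 40.9 CPM in KO replicate 5 (the next at 35.1 CPM) and at 41.0 CPM in WT replicate 9 (the next at 34.8 CPM). No genotype by region interaction passed for the 8 genes.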

How the results depend on the processing

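No gene of the set was called between KO and WT under any alternative. Of 527 values of the 8 genes under alternatives other than leaving out a library, 497 kept their direction and their side of the threshold, 27 changed sign, 3 newly passed, all in the libraries of low striatal score, and 0 were lost. The fewest reads were those of Tacr3 in prefrontal cortex, with 18 to 32 in KO and 16 to 49 in WT libraries, and Tacr1 there had 49 to 88 in KO and 54 to 115 in WT.

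The counts of all genes called moved more, and the cause was not tested. In hippocampus 20 genes became 47 with DESeq2, 5 with the replicate block and 3 in the libraries of low striatal score (fewer samples). In prefrontal cortex 18 became 222 with DESeq2, 55 with voom, 208 with all 60 libraries in 1 fit, 10 with the replicate block, 6 with the olfactory bulb score and 50 with the striatal score as covariate. In striatum 8 became 28 with DESeq2, 22 with all 60 libraries and 3 with the replicate block. On the sums 27 became 131 with DESeq2, 650 with 60 libraries taken as independent, 187 with voom and an animal correlation and 11 with the replicate block. The interaction count of 4 became 17 with DESeq2, 1 with RLE factors, 1 with no filter and 0 with the block. Leaving out 1 library gave 12 (without KO replicate 9) to 26 (without KO replicate 2) in hippocampus, 9 (without KO replicate 3) to 68 (without KO replicate 7) in prefrontal cortex, 5 (without KO replicate 3) to 15 (without WT replicate 5) in striatum, and 19 (without KO replicate 4) to 48 (without KO replicate 5) on the sums. For KO and WT libraries of equal number the median correlation of deviations was -0.14 in hippocampus, -0.030 in prefrontal cortex and -0.089 in striatum. Single pairs ran from -0.53 to 0.25 in hippocampus, from -0.21 to 0.32 in prefrontal cortex and from -0.35 to 0.31 in striatum. Whether such libraries share more than a number cannot be told from these values.

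Between genotypes none of the values that changed sign was called. The striatal score used 3 genes, chosen after the data had been seen, and the score planned at first was not run. In hippocampus Oprm1 became 0.000964 with DESeq2, 8.73e-05 with RLE factors, 0.000361 with all 60 libraries, 0.00496 with the striatal score and 0.229 in the libraries of low score. Tacr1 became 0.0486 with the block, 0.0803 with the score and 0.883 at low score, and Tac1 0.0148 with the score and 0.239 at low score, where Oprd1 became -0.0746 and Oprk1 0.418. In prefrontal cortex the olfactory bulb score gave 0.0192 for Penk, -0.0184 for Tac1 and -0.0284 for Oprk1. In striatum the hypothalamus score gave 0.0513 for Penk, 0.0321 for Pdyn, 0.0583 for Tac1, 0.0143 for Oprd1 and 0.00163 for Oprk1, and Tac1 became 0.0319 with voom and 0.00264 with the block. On the sums Tacr1 became -0.0244 with 60 libraries.

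Leaving out 1 library changed the sign of some values without a call. In hippocampus Penk ran from -0.612 to 0.0591, Pdyn from -0.14 to 0.0671, Tac1 from -0.262 to 0.0937, Oprm1 from -0.039 to 0.0393, Oprd1 from -0.0175 to 0.0306 and Tacr1 from -0.167 to 0.0787. In prefrontal cortex Penk ran from -0.0453 to 0.00631 and Oprk1 from -0.0305 to 0.0662. In striatum Penk ran from -0.0757 to 0.00897, Pdyn from -0.082 to 0.00289 and Tac1 from -0.0433 to 0.0476. On the sums Penk ran from -0.0434 to 0.0185, Pdyn from -0.00632 to 0.0539 and Tac1 from -0.00358 to 0.0738.

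Between regions, Penk in hippocampus against prefrontal cortex became -0.148 in KO with the replicate block, and -1.15 in KO and -0.966 in WT in the libraries of low striatal score. There Tacr1 became -0.298 in WT, and Pdyn (-1.0 in WT) and Oprk1 (-1.37 in KO and -1.78 in WT) newly passed. These libraries were chosen by a score that moves with Penk, and no test is read from them. The block within a genotype changed no call of the 8 genes.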
